A study of Mus musculus with 4 samples.

Results

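The response of matrix and adhesion genes to loss of *Vegf* was examined in primary mouse osteoblasts (OBs) by pooling the female and the male culture pair, which together make up all 4 cultures of the series. Within each pair, the *Vegf*-deficient culture (OBVEGFKO) was set against the *Vegf*-expressing control (WT) of the same sex, and a gene was followed up where both pairs lay on the same side of the panel. The OBs were isolated from the long bones of 4-day-old *Vegf*fl/fl mice and used at passage 1, so that the controls carried the floxed alleles as well. WT cultures received Adenovirus-GFP and OBVEGFKO cultures Adenovirus-Cre-GFP for 6 days in 10% serum, followed by 24 h in 1% serum, and 500 ng total RNA from each was reverse transcribed. There was 1 culture for each sex and genotype, the number of mice behind a culture was not stated, and no culture without floxed alleles was given Cre, so that exposure to Cre and loss of *Vegf* cannot be told apart. *Vegf* mRNA was not analysed here.

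Osteoblasts secrete the organic matrix of bone, which is largely type I collagen with smaller amounts of other collagens and of non-collagenous proteins such as osteonectin and osteopontin. They attach to it through integrins, remodel it with metalloproteinases and restrain these enzymes with tissue inhibitors. VEGF released by OBs acts on the endothelium of bone vessels and on the osteoblast lineage itself.

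Each of the 84 wells of the qPCR array gave a cycle threshold (Ct), the cycle at which the product became detectable, so that a lower Ct means more template. A Ct of 35 was the highest value in every culture and was treated as the limit of detection. It was reached in 8 wells in at least 1 culture, and the other 76 wells formed the panel used for all counts. The latest readings inside the panel were those of wells F11 (34.68), E07 (33.95) and B09 (33.72). Gene names were at hand for 39 wells, of which 38 were in the panel, and did not come with the deposited Ct values. The other 45 wells are given by their position. The 39 names ran alphabetically along the plate. Ct values of different wells depend on each assay, so genes are compared between cultures and not with each other.

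Several single readings stood apart from the rest of their own well. *Lamc1*, the laminin γ1 chain, had a Ct of 31.97 in female WT, 31.56 in male WT and 28.83 in male OBVEGFKO cells but 13.67 in female OBVEGFKO cells, the earliest reading of that culture. Well F06 was at the limit in 3 cultures and at 15.65 in female OBVEGFKO cells. *Timp1*, a secreted inhibitor of metalloproteinases, had a Ct of 30.02 in female WT cells against 22.39 in male WT, 19.30 in female OBVEGFKO and 20.16 in male OBVEGFKO cells. *Postn*, the matricellular protein periostin, was at 21.18 in female WT, 20.74 in male WT, 14.84 in female OBVEGFKO and 18.33 in male OBVEGFKO cells. All of these readings belong to the female pair, and 3 wells of the panel (*Lamc1*, *Timp1* and *Postn*) changed by more than 3 cycles more in the female than in the male pair. Each well gave 1 reading per culture, so the repeatability of these readings was not tested.

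The osteoblast markers were detected in all 4 cultures. *Sparc*, which encodes osteonectin, had a Ct of 17.52 and 17.33 in female and male WT cells and of 15.07 and 14.64 in OBVEGFKO cells. *Col1a1*, the α1 chain of type I collagen, was at 18.87 and 18.46 in WT and at 15.56 and 15.19 in OBVEGFKO cells. *Spp1*, which encodes osteopontin, was at 18.85 and 18.41 in WT and at 15.72 and 15.70 in OBVEGFKO cells. All 6 osteoblast markers, which also include *Postn*, *Mmp13* and *Cdh2*, were under the limit in every culture. Of the 4 markers of other cell types, *Itgb2* (leukocytes), *Pecam1* (endothelium) and *Col2a1* (cartilage) were detected in every culture, and *Cdh1* (epithelium) in all but male WT cells.

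The whole panel was detected earlier in *Vegf*-deficient cells. All 76 wells had a lower Ct in OBVEGFKO than in WT cells of the same sex, with a median change of −3.28 cycles in the female pair (interquartile range −3.59 to −2.995) and −2.84 cycles in the male pair (−3.15 to −2.57). In 75 of the 76 wells both OBVEGFKO cultures were below both WT cultures, and the groups overlapped for *Pecam1* alone. Outside the panel, wells C05 and C11 went the other way in the male pair, from 34.93 and 34.55 in WT cells to the limit in OBVEGFKO cells. At an efficiency of 2 per cycle the median changes correspond to 9.71-fold and 7.16-fold more template, although the same mass of RNA was used. The housekeeping wells were not analysed here, so that a difference in reverse transcription or cDNA input and a rise of the whole panel cannot be told apart. The values that follow are therefore relative, with the median change of the panel in each pair set to 0, and a positive log2 value means that a gene gained more, and a negative one less, than the median well.

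**Figure D1:**
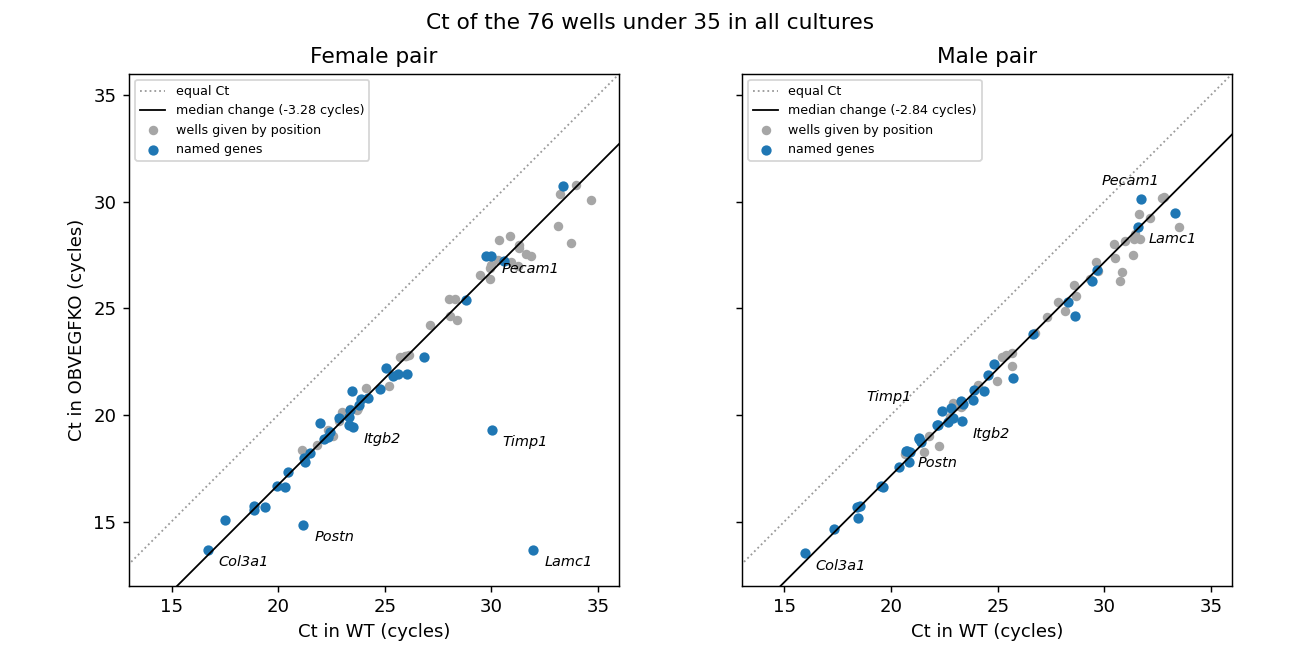
Ct (cycles) in OBVEGFKO against WT cells for the 76 wells under 35 in all cultures, with the female pair on the left and the male pair on the right, each point being 1 well (blue, named genes; grey, wells given by position). All points lie below the dotted line of equal Ct and most follow the solid line of the median change, −3.28 cycles in the female and −2.84 cycles in the male pair, whereas *Lamc1*, *Timp1* and *Postn* lie far below it in the female pair.

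Relative to this shift, most wells moved little and the pairs resembled each other weakly. The median size of the relative change was 0.29 on the log2 scale in each pair, and 69 wells in each pair lay within 2-fold of the median. The female and male values differed by a median of 0.31. Across the 76 wells Spearman's rho between the pairs was 0.17 and Pearson's r was −0.054, and without the 3 wells named above these were 0.27 and 0.24 over 73 wells, a rise that follows in part from leaving out wells for their disagreement between the pairs. These coefficients describe genes measured on the same 4 cDNAs, which are not replicates. The difference between the pairs grew with Ct, from a median of 0.19 in the 36 wells with a highest Ct of at most 25 to 0.32 in the 20 wells above 25 and up to 30, and 0.87 in the 20 wells above 30. With 2 pairs an exact sign-flip test cannot go below a two-sided p of 0.5, so no test was made and the values of each pair are given.

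Both pairs lay above the panel in 25 of the 76 wells (32.9%) and below it in 24 (31.6%), while 22 wells lay on opposite sides and 5 were at the median in 1 pair. Among the 38 named genes, 10 (26.3%) were above and 10 (26.3%) below in both pairs, 14 were on opposite sides, and *Col5a1*, *Fn1*, *Mmp14* and *Timp2* were at the median in 1 pair. With each culture centred, both OBVEGFKO cultures were above both WT cultures in 14 of the 76 wells and below them in 17, and the groups overlapped in 45. Among the named genes, both OBVEGFKO cultures were above both WT cultures for *Itgb2*, *Itgav*, *Itgb1*, *Icam1* and *Timp3*, and below them for *Adamts1*, *Adamts2*, *Col3a1*, *Col5a1*, *Mmp2*, *Sparc*, *Spp1* and *Ctgf*, while for the other named genes of the panel the groups overlapped. Wells at least 1.5-fold above the panel in both pairs numbered 3 (3.95%), and 1 well (1.32%) was at least 1.5-fold below it. The named genes among them were *Itgb2*, above, and *Pecam1*, below. With each culture centred on its own median Ct instead, 4 wells were above and 45 below in both pairs, counting changes of any size. At least 1.5-fold, 1 well was above and 7 were below with that reference. *Itgb2* was then not past the threshold, and the named genes past it were *Adamts1*, *Col3a1*, *Mmp2*, *Mmp3* and *Pecam1*, all below. With the panel median as the reference, the nearest well outside the threshold was C01, at 0.56 in each pair, against a threshold of 0.585.

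With the panel median as the reference, *Itgb2*, which encodes the β2 chain shared by the leukocyte integrins, was more even across the pairs than *Pecam1*. Its Ct was 23.50 in female WT and 23.34 in male WT cells, and 19.44 in female OBVEGFKO and 19.70 in male OBVEGFKO cells. The groups did not overlap, and the relative change was 0.78 in the female and 0.80 in the male pair, a mean of 0.79 ± 0.014 (SD, n = 2 pairs) or 1.73-fold. *Itgb2* was above the reference in both pairs under each of the 6 other references tried (the mean, 2 other sets of wells, *Ctnnb1*, *Itgb1* and the median Ct of each culture), the lowest value being 0.09 in the female pair when every culture was centred on its own median Ct. It passed 1.5-fold in both pairs with 2 of these references, and *Pecam1* with all 6. *Pecam1* was the more even of the 2 genes with the mean (−1.09 and −1.30, against 0.42 and 0.72 for *Itgb2*). The same held with *Ctnnb1* (−1.21 and −0.88, against 0.30 and 1.14) and with each culture's own median Ct (−1.42 and −1.425, against 0.09 and 0.595). Without the 3 wells that stood apart the values of *Itgb2* were 0.79 and 0.79. Well D03, which lies between *Itgav* and *Itgb1* in the alphabetical layout, was also past the threshold, at 0.99 in each pair. Its Ct was 31.26 and 31.35 in female and male WT cells and 26.99 and 27.52 in OBVEGFKO cells. The remaining well past the threshold, F11, was at 1.34 and 1.84, with a Ct of 34.68 and 33.51 in WT cells, close to the limit.

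*Pecam1*, which encodes the endothelial adhesion molecule CD31, had the lowest mean change of the 76 wells. Its Ct was 29.98 in female WT and 31.72 in male WT cells, and 27.43 in female OBVEGFKO and 30.10 in male OBVEGFKO cells. Female cells read earlier than male cells of either genotype, so the groups overlapped although the change had the same direction within each pair. The relative change was −0.73 in the female and −1.22 in the male pair, a mean of −0.98 ± 0.35 (SD, n = 2 pairs), that is 1.97-fold below the panel. Before centring, its Ct fell by 2.55 and 1.62 cycles, so that *Pecam1* moved less than the median well. Whether its absolute level differed was not tested.

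Of the other markers of non-osteoblast cells, *Col2a1*, the collagen of cartilage, differed more between the sexes than between the genotypes after centring. Its Ct was 25.05 in female WT, 28.63 in male WT, 22.19 in female OBVEGFKO and 24.63 in male OBVEGFKO cells. The relative change was −0.42 in the female and 1.16 in the male pair (mean 0.37 ± 1.12, SD, n = 2 pairs). *Cdh1*, which encodes E-cadherin, had a Ct of 33.59 in female WT cells and was at the limit in male WT cells, against 29.58 and 28.85 in OBVEGFKO cells. It was at 0.73 in the female pair and at least 3.31 in the male pair, and it was left out of the counts. In cultures measured as a whole, a change in the number of cells of a type and a change in RNA per cell cannot be told apart, and the part of other cells in these results was not tested.

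The 5 named matrix- and cell-binding integrin subunits had a median mean change of 0.21, against 0.04 for the 76 wells, and 3 of the 5 (60%, against 32.9% of the panel) were above the panel in both pairs and none below. This difference was not tested. Besides *Itgb2* these were *Itgav* and *Itgb1*. Other wells lie between named integrins in the alphabetical layout and are not in this count. Of these, C08 was below the panel in both pairs (−0.24 and −0.42) and C09 was on opposite sides (−0.26 and 1.61). C12 (0.07 and 1.26), D01 (0.05 and 0.52) and D03 (0.99 in each pair) were above it, and C11 was outside the panel. *Itgav*, the αV chain of the receptors for vitronectin and osteopontin, had a Ct of 25.37 and 25.71 in female and male WT cells and of 21.81 and 21.73 in OBVEGFKO cells. Its relative change was 0.28 in the female and 1.14 in the male pair (mean 0.71 ± 0.61, SD, n = 2 pairs), and the female value was below 0 with 3 of the 6 other references, such as −0.20 with *Ctnnb1*. *Itgb1*, the β1 chain that pairs with most collagen- and fibronectin-binding α chains, was at 0.19 and 0.23, and its mean turned to −0.0096 with the mean as the reference and to −0.24 with each culture's own median Ct. *Itga5*, the α chain of the fibronectin receptor, was at −0.13 and 0.22, and *Itga2*, the α chain of a collagen receptor, at −0.99 and 0.32. With the panel median as the reference, the β chain of the collagen receptor was even across the pairs, while its α2 chain was on opposite sides. With the mean, *Ctnnb1* or each culture's own median Ct as the reference, *Itgb1* was on opposite sides as well.

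**Figure D2:**
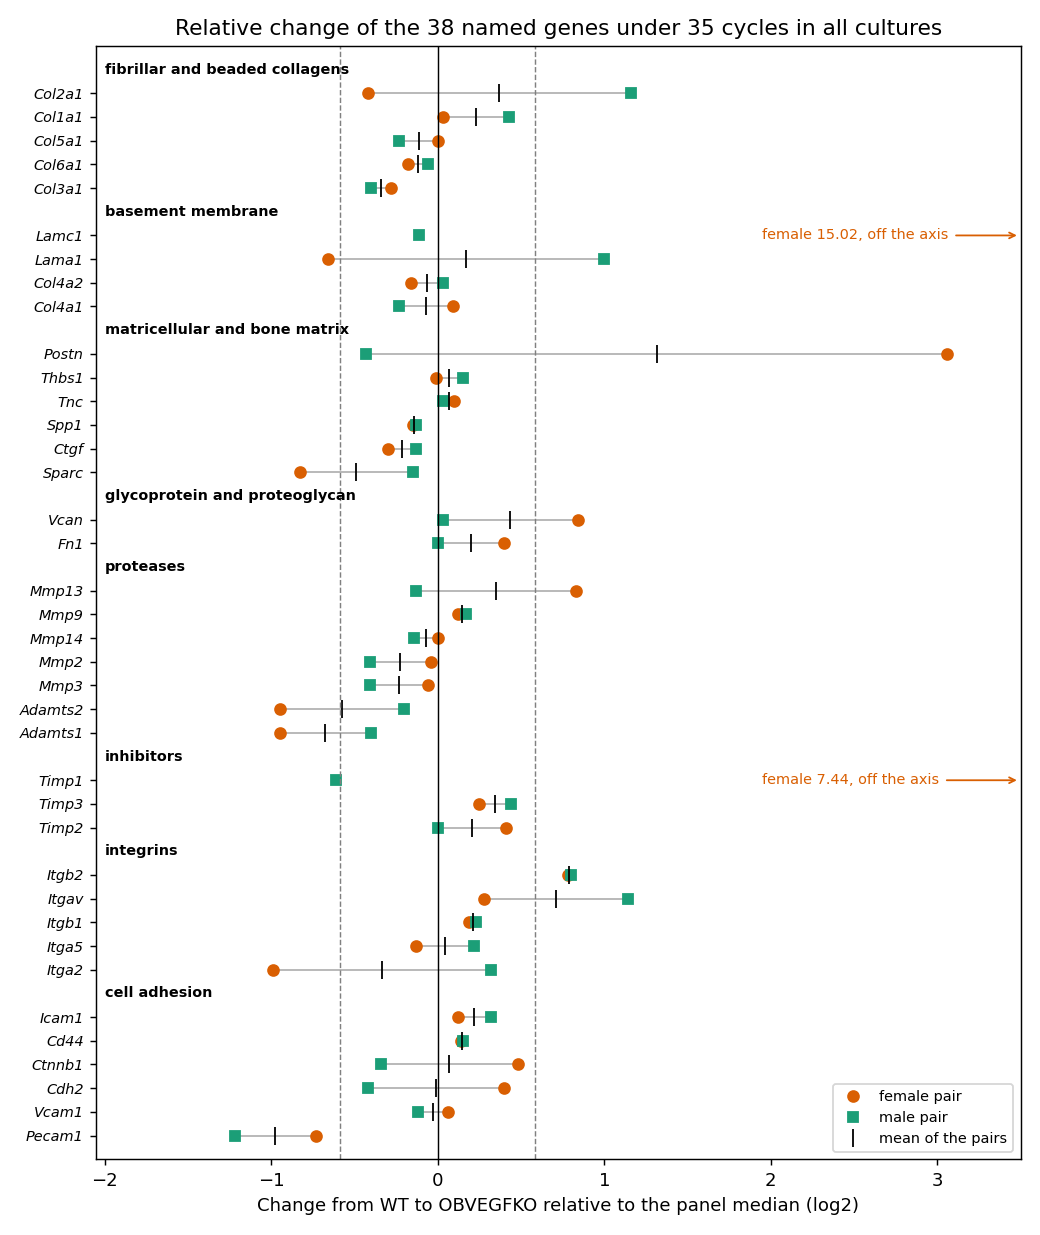
Relative change from WT to OBVEGFKO cells (log2, x axis, panel median set to 0) of the 38 named genes under 35 cycles in all cultures, grouped by role, with the female pair as circles, the male pair as squares, a bar at their mean and dashed lines at 1.5-fold. *Itgb2* (0.78 and 0.80) lies beyond the upper line and *Pecam1* (−0.73 and −1.22) beyond the lower line in both pairs, and the female values of *Lamc1* (15.02) and *Timp1* (7.44) fall off the axis.

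Of the 5 named fibrillar and beaded-filament collagens, which include *Col2a1* (−0.42 and 1.16), 1 was above (20%) and 2 were below (40%) in both pairs, against 32.9% and 31.6% of the panel. *Col1a1* was at 0.03 in the female and 0.43 in the male pair, a mean of 0.23 ± 0.28 (SD, n = 2 pairs), and its female value was below 0 with 5 of the 6 other references. With each culture's own median Ct its mean turned to −0.22. *Col3a1*, the fibrillar collagen of distensible tissues and early callus, was below the panel in both pairs under the 6 other references as well. Its Ct was 16.69 in female WT, 15.95 in male WT, 13.69 in female OBVEGFKO and 13.51 in male OBVEGFKO cells. The relative change was −0.28 and −0.40 (mean −0.34 ± 0.085, SD, n = 2 pairs), or 1.27-fold below the median well. *Col5a1*, a collagen that nucleates type I fibrils, had a Ct of 21.48 and 20.89 in WT and of 18.20 and 18.28 in OBVEGFKO cells, which placed it at 0.00 and −0.23 (mean −0.12 ± 0.16). *Col6a1*, a chain of the beaded-filament collagen VI, was at −0.18 and −0.06.

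None of the 4 named basement membrane genes was on the same side in both pairs, against 49 of the 76 wells of the panel. Wells D09 to D12 lie between *Lama1* and *Lamc1* in the alphabetical layout and are not in this count. D10 (0.62 and 0.44), D11 (0.16 and 0.08) and D12 (0.98 and 0.10) were above the panel in both pairs. D09 was on opposite sides, at −0.38 and 0.24. *Col4a1* and *Col4a2*, which encode the network-forming collagen IV chains, were within 0.23 of the panel in each pair, at 0.09 and −0.23 and at −0.16 and 0.03. *Lama1*, the laminin α1 chain, had a Ct of 33.36 in female WT, 33.31 in male WT, 30.74 in female OBVEGFKO and 29.47 in male OBVEGFKO cells, and was at −0.66 and 1.00. *Lamc1* was at 15.02 in the female pair through its single early reading and at −0.11 in the male pair. The mean of 7.46 ± 10.7 (SD, n = 2 pairs) therefore rests on 1 culture.

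Among the 6 named matricellular and bone matrix proteins, *Sparc*, *Spp1* and *Ctgf* were below the panel in both pairs (50%, against 31.6% of the panel), *Tnc* was above it (16.7%, against 32.9%), and *Postn* and *Thbs1* were on opposite sides. None of the 4 on a shared side kept it in both pairs under all 6 other references, and the differences in share were not tested. *Sparc*, the collagen-binding osteonectin, was at −0.83 in the female and −0.15 in the male pair (mean −0.49 ± 0.48, SD, n = 2 pairs). *Spp1* was nearly the same in the pairs, at −0.15 and −0.13 (mean −0.14 ± 0.014), and *Ctgf*, a connective tissue growth factor now named *Ccn2*, was at −0.30 and −0.13. This mean for *Spp1* is smaller than the median difference between pairs over the panel. *Tnc*, which encodes tenascin C, was at 0.10 and 0.03, but its mean was below 0 with the mean, *Itgb1*, *Ctnnb1* or each culture's own median Ct as the reference. *Thbs1*, which encodes the angiogenesis inhibitor thrombospondin 1, was at −0.01 and 0.15. *Postn* was at 3.06 in the female and −0.43 in the male pair, so its mean of 1.32 ± 2.47 (SD, n = 2 pairs) does not describe either.

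Of the glycoproteins and proteoglycans that fill the pericellular matrix, *Fn1*, which encodes fibronectin, had a Ct of 19.36 and 18.57 in WT and of 15.68 and 15.73 in OBVEGFKO cells. Its relative change was 0.40 in the female pair and 0.00 in the male pair (mean 0.20 ± 0.28, SD, n = 2 pairs), and its mean turned to −0.020 with the mean as the reference, −0.010 with *Itgb1* and −0.25 with each culture's own median Ct. *Vcan*, the hyaluronan-binding proteoglycan versican, was above the panel in both pairs, but with little of it in male cells, at 0.84 and 0.03. With each culture's own median Ct its mean turned to −0.013.

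Of the 7 named proteases, 4 (57.1%) were below the panel in both pairs and 1 (14.3%) was above, against 31.6% and 32.9% of the panel, a difference that was not tested. In 2 of the 4, *Mmp2* and *Mmp3*, the female value was close to 0. Wells E07, E08, E11 and E12 lie between named *Mmp* genes in the alphabetical layout and are not in this count. E07 was below the panel in both pairs (−0.11 and −0.32), E12 above it (1.13 and 0.01) and E08 on opposite sides (−0.22 and 0.91). E11 was at the limit in every culture. *Adamts1*, which cleaves versican and other proteoglycans, had a Ct of 21.97 in female WT, 21.31 in male WT, 19.64 in female OBVEGFKO and 18.87 in male OBVEGFKO cells. Its relative change was −0.95 and −0.40 (mean −0.68 ± 0.39, SD, n = 2 pairs), or 1.60-fold below the panel. *Adamts2*, the procollagen N-proteinase, had a Ct of 23.47 and 23.27 in WT and of 21.14 and 20.63 in OBVEGFKO cells. It was at −0.95 and −0.20 (mean −0.58 ± 0.53), so that for both enzymes the larger shortfall was in the female pair.

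*Mmp2*, a gelatinase, and *Mmp3*, a stromelysin, showed the opposite order, at −0.04 and −0.41 and at −0.06 and −0.41. This order depended on the reference. With *Ctnnb1* or each culture's own median Ct, the larger shortfall of *Mmp2* and *Mmp3* was in the female pair. *Adamts1*, *Mmp2* and *Mmp3* were below the reference in both pairs under all 6 other references, and *Adamts2* was not. *Mmp14*, the membrane-type enzyme that activates pro-MMP2, was at 0.00 and −0.14. *Mmp9*, the gelatinase most abundant in osteoclasts and leukocytes, was at 0.12 and 0.17, and its mean turned to −0.075 with the mean as the reference, −0.065 with *Itgb1* and −0.30 with each culture's own median Ct. *Mmp13*, the collagenase of osteoblasts and hypertrophic cartilage, had a Ct of 26.03 in female WT, 24.57 in male WT, 21.92 in female OBVEGFKO and 21.86 in male OBVEGFKO cells. Before centring, WT cells of the sexes were more than 1 cycle apart and OBVEGFKO cells were close together, and the relative change was 0.83 in the female and −0.13 in the male pair (mean 0.35 ± 0.68, SD, n = 2 pairs).

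Of the 3 tissue inhibitors of metalloproteinases, 1 was above the panel in both pairs (33.3%, against 32.9% of the panel). This was *Timp3*, which is bound to the matrix, at 0.25 and 0.44 (mean 0.35 ± 0.13, SD, n = 2 pairs), and its mean turned to −0.10 with each culture's own median Ct. *Timp2*, which also takes part in the activation of pro-MMP2, was at 0.41 and 0.00. *Timp1* was at 7.44 in the female pair, which rests on the late reading of female WT cells, and at −0.61 in the male pair (mean 3.42 ± 5.69, SD, n = 2 pairs).

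In the remaining adhesion genes the changes were small or differed between the pairs. *Icam1*, a ligand of the β2 integrins, was at 0.12 and 0.32, and *Cd44*, the hyaluronan receptor, at 0.14 and 0.15. Both were above the panel in each pair, but with each culture's own median Ct their means turned to −0.23 and −0.30, and that of *Cd44* also to −0.075 with the mean and −0.065 with *Itgb1* as the reference. *Cdh2*, which encodes the N-cadherin of osteoblast junctions, had a Ct of 25.60 and 24.83 in female and male WT cells and of 21.92 and 22.41 in OBVEGFKO cells, and was at 0.40 and −0.42. *Ctnnb1*, which encodes its partner β-catenin, was at 0.48 and −0.34. *Vcam1*, a ligand of α4 integrins, was at 0.06 and −0.12.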

How the data were processed

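Gene expression was measured by SYBR Green qPCR array in 4 cultures, and the authors deposited the Ct of 84 wells per culture, to 2 decimals and not normalised. By the methods, values were then normalised to housekeeping genes and expressed by ΔΔCt. That table of fold changes holds the authors' own comparisons and was not used. Here the change in Ct from WT to OBVEGFKO was taken within each sex, the median change over wells under 35 in all cultures was subtracted, and the sign was turned, at an efficiency of 2 per cycle. The mean and SD of the 2 pairs are given, and no test was made. The calculation was checked on simulated arrays. For the overlap of centred groups, each culture was shifted by the median deviation of its wells from their means over the 4 cultures.

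Well names follow the alphabetical layout, and of the 39 symbols 38 were listed in the GRCm38.p6 gene table and *Ctgf* was found there as an older name. Ct values in every culture were given for named genes past 1.5-fold in both pairs, for the 3 highest and 3 lowest mean changes, for fixed lists of osteoblast matrix genes (with *Col3a1*, *Col5a1* and *Fn1*) and cell type markers, and, chosen after their values were seen, for *Itgav*, *Lama1* and wells given by position. The members and lists were chosen with earlier results of these data known. Alternatives were other references, Ct limits, fold thresholds and efficiency, no pairing, and leaving out each pair. Python 3.11.15, numpy 2.4.6, pandas 2.3.3 and matplotlib 3.10.9 were used.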

Additional observations from a re-analysis of the deposited data

Results flagged for a closer look

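Of the 38 named genes in the panel, 14 lay on opposite sides of it in the female and male pairs, against 22 of all 76 wells. Each sex had 1 culture of either genotype, and whether female and male cells differ was not tested for any of these genes. The male minus female difference in relative log2 change was positive, so that male cells gained more relative to the panel, for *Lama1* (1.66), *Col2a1* (1.58), *Itga2* (1.31), *Itga5* (0.35), *Col4a2* (0.19) and *Thbs1* (0.16). It was negative for *Lamc1* (−15.13), *Timp1* (−8.05), *Postn* (−3.49), *Mmp13* (−0.96), *Cdh2* (−0.82), *Ctnnb1* (−0.82), *Col4a1* (−0.32) and *Vcam1* (−0.18). The first 3 of these negative values rest on single readings of the female pair. The order of the smaller differences depends on the centring. Before it, the female and male Ct changes were −3.15 and −3.06 cycles for *Itga5*, −3.12 and −2.87 for *Col4a2* and −3.27 and −2.99 for *Thbs1*, larger in female cells. For *Lama1*, *Col2a1* and *Itga2* the change before centring was larger in male cells.

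Outside the counts, 8 readings of wells that were at the limit in some culture were above the WT level after centring. Well F06, at 35 in WT cells and at 15.65 in female OBVEGFKO cells, was at least 16.07 above on the log2 scale in the female pair, while it was at 35 in both male cultures. Well B04, at 35 in both WT cultures, was at least 0.71 in the female and at least 0.74 in the male pair. *Cdh1* was at 0.73 in the female pair and at least 3.31 in the male pair. Well A08 was at least 0.27 in the female pair and at −0.39 in the male pair, where it was under the limit in both cultures. In the female pair, well C11 was at least 0.08 and well C05 at least 0.04. In the male pair both went the other way, being at the limit in OBVEGFKO cells only, with C11 at most −3.29 and C05 at most −2.91.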

How the results depend on the processing

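The reference decides the sign of small changes, since it adds 1 constant per pair to every well, and the pairs differed more in wells with a Ct above 30 (median difference 0.87), for which the cause was not tested. The median change of the panel stayed between −3.32 and −3.26 cycles in the female and between −2.84 and −2.81 cycles in the male pair with other sets of wells. Counts in the order higher, lower, at least 1.5-fold higher and at least 1.5-fold lower were 25, 24, 3 and 1. Taking all 84 wells or the wells of at most 30 as the reference, an efficiency of 1.9, a limit of 33, or leaving out the 3 wells that stood apart (added after seeing the data) kept each count within 1.5 times. The other settings moved counts as follows, and beyond the shift of the reference and the number of wells or pairs the cause was not tested. With the mean as the reference, 8 wells were higher and 2 were 1.5-fold lower. With *Ctnnb1*, 12 were higher, 12 lower and 1 was 1.5-fold higher. With *Itgb1*, 9 were higher, 39 lower and 4 were 1.5-fold lower. With each culture's own median Ct (added after seeing the data), the counts were 4, 45, 1 and 7, and the panel median itself stood at −0.69 in the female and −0.21 in the male pair. This median stood at −0.36 in the female pair with the mean, at −0.48 and 0.34 with *Ctnnb1* and at −0.19 and −0.23 with *Itgb1*. Without normalisation all 76 wells were higher and at least 1.5-fold higher, 0 were lower and 0 at least 1.5-fold lower, with panel medians of 3.28 and 2.84. Among wells of at most 30, which leaves out *Pecam1*, 0 were 1.5-fold lower. At a 2-fold threshold over all 76 wells, 1 well was higher and 0 were lower. With no replicate block, which asks that both OBVEGFKO cultures lie beyond both WT cultures and also centres each culture on its own median Ct, so that 2 choices changed at once, 3 were higher, 0 were 1.5-fold higher and 2 were 1.5-fold lower, and with cultures centred on the median deviation of their wells instead (added after seeing the data), 14 were higher and 0 and 0 passed 1.5-fold. With 1 pair left out, the counts ranged from 37 to 37 higher, 36 to 37 lower, 9 to 13 at least 1.5-fold higher and 3 to 9 at least 1.5-fold lower.

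Of the 20 named genes on the same side in both pairs, *Itgb2*, *Pecam1*, *Adamts1*, *Col3a1*, *Mmp2* and *Mmp3* kept that side in both pairs under the 6 other references. Reversed means without normalisation were 2.39 for *Adamts1*, 2.49 for *Adamts2*, 2.72 for *Col3a1*, 2.94 for *Col6a1*, 2.85 for *Ctgf*, 2.84 for *Mmp2*, 2.83 for *Mmp3*, 2.09 for *Pecam1*, 2.57 for *Sparc* and 2.92 for *Spp1*. With each culture's own median Ct, with or without the replicate block, they were −0.30 for *Cd44*, −0.22 for *Col1a1*, −0.23 for *Icam1*, −0.24 for *Itgb1*, −0.30 for *Mmp9*, −0.10 for *Timp3*, −0.38 for *Tnc* and −0.013 for *Vcan*. With the mean they were −0.075 for *Cd44*, −0.0096 for *Itgb1*, −0.075 for *Mmp9* and −0.15 for *Tnc*. With *Itgb1* they were −0.065 for *Cd44*, −0.065 for *Mmp9* and −0.15 for *Tnc*, and with *Ctnnb1* −0.0050 for *Tnc*.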
